A study of Mus musculus with 12 samples.

Results

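Single-exon antisense lncRNAs are long noncoding RNAs that lie on the strand opposite an annotated gene and were modelled by the authors as 1 exon. All entries of the deposited lncRNA table with the authors' antisense class, 1 exon, no RefSeq name and a position on an autosome were taken, which gave 985 of 15558 lncRNAs. Antisense lncRNAs are transcribed from the strand opposite a gene, and those known in detail can act on the chromatin of that gene, on its transcription or on its RNA, while many are known only as transcripts that stay in the nucleus. In mouse liver, growth hormone, which is released in pulses in males and more evenly in females, is known to set the sex-biased expression of many genes of drug and lipid metabolism through the transcription factor STAT5. Whether RNA from the opposite strand of such genes is also sex-biased is the question that the male and female comparison of these lncRNAs addresses.

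The RNA came from livers of CD-1 mice, an outbred stock, that were untreated and 7 to 11 weeks old. The groups were male nuclear RNA, female nuclear RNA, male total RNA and female total RNA, each with 3 pools of 12 to 17 mice, so that single animals cannot be seen. Nuclei were purified through sucrose before their RNA was extracted, ribosomal RNA was depleted in part, and the libraries were made with a kit that keeps strand. All nuclear libraries ran in lane 4, as did 2 of the female total libraries, while all male total libraries and 1 female total library ran in lane 3. Fraction and lane can therefore not be told apart in males. Levels are reads per kilobase of the lncRNA, scaled to the reads of the library (RPKM).

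The deposited tables hold 1 mean per group. Because an lncRNA of 1 exon has a known length, the reads of each of the 12 libraries could be worked out from these means for all 985 lncRNAs, with 1 solution for each value above 0. The library totals behind the RPKM were 11.1 to 12.4 M reads (M, 1000000) in male nuclear, 11.7 to 12.4 M reads in female nuclear, 6.43 to 13.8 M reads in male total and 10.2 to 13.5 M reads in female total RNA. Which library is which numbered pool is not known, so pools are given from the largest library to the smallest. An lncRNA had a median of 24 reads in male nuclear, 24 in female nuclear, 2 in male total and 3 in female total RNA over the 3 pools of a group, so most could be compared between the sexes in nuclear RNA and few in total RNA. At the median length, 3 reads in a group, the limit that a count of 0 allows, correspond to 0.0298 RPKM in male nuclear and 0.0332 RPKM in male total RNA, which covers counting error only. The sexes fit their labels, with the authors' mean of Xist at 0.162 FPKM (reads per kilobase of a gene, scaled to depth like RPKM) in male and 94.0 FPKM in female nuclear RNA. Malat1, a nuclear RNA, was higher in nuclear than in total RNA, at 737 against 201 FPKM in females. The 6 hepatocyte markers summed to 372 FPKM in male and 446 FPKM in female nuclear RNA, and 3 of them were called in the authors' deposited table, Apoa1 higher in males and Tat and Hnf4a higher in females. None of 5 Kupffer, 4 endothelial, 4 stellate, 4 cholangiocyte and 3 lymphocyte markers was called between the sexes in nuclear RNA in the authors' deposited table. Of 2 erythroid markers 1 was called, Alas2, at 1.72 FPKM in male and 0.335 FPKM in female nuclear RNA, and its part in the sex differences was not tested.

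The lncRNAs ranged from 215 to 43079 bases with a median of 2830 bases, and 492 lay on the plus and 493 on the minus strand. Of the 985, 955 overlapped a RefSeq gene on the other strand, and together they faced 835 genes. Most of the lncRNAs, 573, lay wholly inside the gene. A further 239 covered the end of the gene, with a median overlap of 85 bases, 138 covered its start and 5 spanned the whole gene. There were 103 genes that faced 2 or more lncRNAs, and 205 lncRNAs had another one within 5 kb on their strand, so neighbouring entries may share a transcript. No source used here says whether strand was used in counting, so reads of an lncRNA and of the gene it overlaps may be mixed.

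An lncRNA that covers the start of a gene is read through that gene's promoter from the opposite strand, and 8 of 138 such lncRNAs (5.80%, beside 4.12% of all lncRNAs) were called between the sexes in nuclear RNA. RefSeq's table held the promoters of 6 of these genes, and those of the 4 lncRNAs with the lowest adjusted p are shown, 1 higher in females (Bmper) and 3 higher in males. The sequences are RefSeq's, from 250 bases before to 50 after the gene's start on GRCm38.p6, written 5′ to 3′ on the strand of the gene, with CG dinucleotides in capitals. Bmper lies at chr9:23222826-23223125 on the plus strand, R3hdml at chr2:163492068-163492367 on the plus strand, Etfbkmt at chr6:149141263-149141562 on the plus strand and Cdpf1 at chr15:85811648-85811947 on the minus strand.
Bmper: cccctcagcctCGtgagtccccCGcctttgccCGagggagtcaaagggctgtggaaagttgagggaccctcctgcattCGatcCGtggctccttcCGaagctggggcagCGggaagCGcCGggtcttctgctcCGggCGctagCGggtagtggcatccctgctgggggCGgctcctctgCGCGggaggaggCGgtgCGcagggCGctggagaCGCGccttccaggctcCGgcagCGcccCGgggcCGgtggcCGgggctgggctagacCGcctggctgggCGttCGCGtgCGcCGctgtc
R3hdml: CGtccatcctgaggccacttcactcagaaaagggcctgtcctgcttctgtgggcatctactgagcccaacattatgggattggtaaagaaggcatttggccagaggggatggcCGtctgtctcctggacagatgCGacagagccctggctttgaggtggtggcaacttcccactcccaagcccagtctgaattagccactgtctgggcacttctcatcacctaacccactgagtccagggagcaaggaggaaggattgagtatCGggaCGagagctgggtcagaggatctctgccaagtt
Etfbkmt: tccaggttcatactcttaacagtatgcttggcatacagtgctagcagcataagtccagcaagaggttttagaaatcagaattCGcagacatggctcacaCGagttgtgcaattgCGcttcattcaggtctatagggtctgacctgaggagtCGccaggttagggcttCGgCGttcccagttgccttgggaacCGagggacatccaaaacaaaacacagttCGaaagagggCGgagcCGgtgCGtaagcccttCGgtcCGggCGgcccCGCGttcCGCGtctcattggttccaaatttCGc
Cdpf1: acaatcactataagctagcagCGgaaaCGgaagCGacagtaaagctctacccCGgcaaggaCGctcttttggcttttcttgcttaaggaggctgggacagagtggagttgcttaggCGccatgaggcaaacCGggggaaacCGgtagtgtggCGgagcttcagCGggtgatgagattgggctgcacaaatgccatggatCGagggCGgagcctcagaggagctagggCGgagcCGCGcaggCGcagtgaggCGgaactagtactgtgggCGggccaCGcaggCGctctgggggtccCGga
The CG count was 31 at Bmper, 5 at R3hdml, 19 at Etfbkmt and 21 at Cdpf1. Over the 146 promoters in the table that carry the name of a gene whose start a single-exon antisense lncRNA covers, the median was 17, beside 7 over all 32851 promoters of that length, and the median GC content was 58.2% beside 52.7%. Neither the STAT5 letters TTCNNNGAA nor TATAAA, searched on both strands, occurred in the 4 windows. Of all promoters of that length, 8.30% held TTCNNNGAA and 13.6% held TATAAA, and of the 146 promoters 7.53% and 8.90% did. No match says only that these letters are not in the window.

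Levels were low and higher in nuclear than in total RNA, as over all lncRNAs, whose median was 0.108 RPKM in male nuclear and 0.0139 RPKM in male total RNA. The median over the 985 lncRNAs was 0.257 RPKM in male nuclear, 0.249 RPKM in female nuclear, 0.0310 RPKM in male total and 0.0306 RPKM in female total RNA. At least 0.5 RPKM was reached by 235 lncRNAs in male nuclear, 240 in female nuclear, 22 in male total and 28 in female total RNA, and 95 reached 1 RPKM in some group. Of 622 spliced antisense lncRNAs, 31.8% reached 0.5 RPKM in male nuclear RNA, beside 23.9% of the single-exon antisense lncRNAs and 9.62% of 10914 unnamed single-exon intergenic lncRNAs. These shares were not tested against each other.

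The highest lncRNA lay at the end of Ppp4r4, which encodes a regulatory subunit of protein phosphatase 4. This lncRNA (ncRNA_as_chr12_10847, mm9 chr12:104851944-104854754, minus strand) overlaps the gene by 99 bases. It had 17.1, 19.5 and 21.1 RPKM in male nuclear pools and 29.9, 34.0 and 34.6 RPKM in female nuclear pools, and the sexes did not overlap. In total RNA it had 5.15, 5.02 and 3.65 RPKM in male pools and 2.84, 17.5 and 2.23 RPKM in female pools, where a single female library stood far above the others. The log2 difference in nuclear RNA was -0.66 in the authors' deposited table, with an adjusted p of 1.59e-05. The next highest, inside Adh7, an alcohol dehydrogenase gene, was short (346 bases) and reached 15.9, 22.1 and 15.6 RPKM in male nuclear against 12.9, 19.9 and 15.6 RPKM in female nuclear pools, which overlapped. The Adh7 lncRNA also lies wholly inside the RefSeq gene 0610031O16Rik on its own strand, so its reads may be of that gene. That gene had 5.22 FPKM in male and 3.09 FPKM in female nuclear RNA and was called (adjusted p = 1.22e-05 in the authors' deposited table). Other high lncRNAs lay opposite Ahsg and Ttr, which encode plasma proteins of the hepatocyte, opposite Rpsa, a ribosomal protein gene, opposite Zbtb45, a zinc finger gene, opposite BC021614 and opposite Apoe. None of these 6 was called between the sexes in nuclear RNA in the authors' deposited table, and in male nuclear RNA the lncRNAs opposite Ahsg and Rpsa differed more than 3 times among the pools, at 19.7, 10.1 and 6.37 RPKM for Ahsg and at 15.7, 10.5 and 3.54 RPKM for Rpsa.

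Male and female nuclear RNA differed for 42 of the 985 lncRNAs, called at an adjusted p under 0.05 in the authors' deposited table. Of these, 30 were higher in males and 12 in females. The 42 are 4.26% of the lncRNAs, close to the background of 4.12% over all lncRNAs of the table, of which 1.95% were higher in males and 2.17% in females. Males were higher in 71.4% of these calls, beside 47.3% of the calls over all lncRNAs, and this difference was not tested. The split moved with single libraries: a limma fit on the recovered reads called 18 higher in males and 12 in females, but 18 and 17 without the largest male library and 37 and 11 without the smallest. At 0.5 RPKM or more in a sex, 33 of 277 were called (11.9%), beside 17.5% of all lncRNAs at that level. In 39 of the 42, all 3 pools of the higher sex lay above all 3 of the other, which adds no support, since the calls rest on these same pools. The exceptions were the lncRNAs opposite Akr1c19, Slc39a4 and Ces1f. Over all 985 lncRNAs, called or not, 72 were so separated with males higher and 65 with females higher. Of 12402 single-exon lncRNAs, 12.8% showed such a separation in either direction.

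The lncRNA that covers the start of Bmper (ncRNA_as_chr9_7778, mm9 chr9:23019597-23027643, minus strand) was close to 0 in every male nuclear pool. Bmper encodes a secreted protein that binds bone morphogenetic proteins. The lncRNA had 0.0201, 0.0102 and 0.0224 RPKM in male nuclear pools and 1.31, 0.403 and 0.928 RPKM in female nuclear pools. The sexes were far apart, though the female pools spread more than 3 times. The log2 was -5.45 with an adjusted p of 1.80e-19 in the authors' deposited table, and that of the gene, which it overlaps by only 124 bases, was -2.78 with an adjusted p of 1.01e-10. Total RNA gave 2, 0 and 1 reads in male pools and 0, 40 and 3 reads in female pools, so the female reads came almost all from a single library.

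Lcn2 encodes lipocalin 2 and Orm3 an orosomucoid, both of families of the acute phase response, and lncRNAs opposite each were higher in female nuclei. The lncRNA that spans Lcn2 had 0.235, 0.247 and 0.103 RPKM in male and 0.906, 0.783 and 0.809 RPKM in female nuclear pools, with a log2 of -1.97 and an adjusted p of 2.72e-14 in the authors' deposited table. The lncRNA inside Orm3 is only 447 bases long and had 5, 1 and 0 reads in male against 13, 11 and 12 reads in female nuclear pools. Its log2 was -2.39 with an adjusted p of 0.000941 in the authors' deposited table, and rests on 6 male and 36 female reads.

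Another 7 female-biased lncRNAs lay inside genes. A 6320-base lncRNA inside Igf2r (ncRNA_as_chr17_13654, mm9 chr17:12954134-12960453, plus strand) also overlaps Airn, the imprinted noncoding RNA known in mouse to silence the paternal Igf2r allele, on the same strand. It had 1.06, 0.963 and 0.998 RPKM in male and 1.49, 1.72 and 1.72 RPKM in female nuclear pools, a narrow but complete separation with a log2 of -0.59 in the authors' deposited table (adjusted p = 0.0198). It was not called by limma on the recovered reads (adjusted p = 0.0790). The others lay inside Fbxl21, an F-box gene, Cldn14, a claudin of tight junctions, Adcy10 and Adcy1, which encode adenylyl cyclases, Kcnb2, a potassium channel gene, and Gramd1b. In the authors' deposited table their log2 ran between -1.74 for Adcy10 and -0.66 for Kcnb2.

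Among the male-biased lncRNAs, the one at the end of Zfp37, a zinc finger gene, had the largest log2. This lncRNA (ncRNA_as_chr4_3300, mm9 chr4:61844510-61850613, plus strand) overlaps the gene by 43 bases. It had 42, 74 and 44 reads in male nuclear pools and 1, 1 and 0 reads in female nuclear pools. Males were 81.0 times higher from the summed reads, with an exact 95% counting interval of 22.1 to 674. The authors' deposited table gives a log2 of 6.19 with an adjusted p of 6.80e-30, while the gene, at 0.0490 FPKM in male and 0.0164 FPKM in female nuclei, was not called.

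A pair of neighbouring lncRNAs on chromosome 15 was male-biased in both fractions. The first covers the start of Cdpf1 (ncRNA_as_chr15_12817, mm9 chr15:85637875-85645221, plus strand) and the second the start of Pkdrej (ncRNA_as_chr15_12818, mm9 chr15:85652073-85660217, plus strand), a gene of the polycystin family. The Cdpf1 lncRNA had 6.91, 5.61 and 5.41 RPKM in male and 2.43, 3.03 and 2.46 RPKM in female nuclear pools. The Pkdrej lncRNA had 2.79, 2.60 and 2.17 RPKM in male and 1.01, 0.979 and 0.969 RPKM in female nuclear pools. Both were even among the nuclear pools of a sex. In nuclear RNA the log2 was 1.29 for Cdpf1 and 1.46 for Pkdrej in the authors' deposited table (adjusted p = 2.47e-12 and 2.08e-15). In total RNA it was 1.58 for Cdpf1 and 1.72 for Pkdrej in the authors' deposited table (adjusted p = 5.03e-12 and 9.08e-09). For the Cdpf1 lncRNA the total pools of the sexes overlapped in RPKM scaled to library totals alone.

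Enzymes of liver metabolism and a complement protein faced male-biased lncRNAs with many reads. Inside Keg1 lay an lncRNA of 23097 bases (ncRNA_as_chr19_14823) with 3.57, 2.22 and 0.901 RPKM in male and 0.575, 0.511 and 0.472 RPKM in female nuclear pools. Aox3, which encodes an aldehyde oxidase, faced an lncRNA inside the gene (ncRNA_as_chr1_221) with 12.0, 7.59 and 3.46 RPKM in male and 2.07, 1.06 and 1.23 RPKM in female nuclear pools. A second lncRNA at the end of Aox3 (ncRNA_as_chr1_222) had 5.17, 3.26 and 1.61 RPKM in male and 0.309, 0.645 and 0.599 RPKM in female nuclear pools. In each of these the sexes were apart and the male pools differed more than 3 times among themselves. In the authors' deposited table the log2 was 2.23 for Keg1 (adjusted p = 1.17e-07), 2.52 for the inner Aox3 lncRNA (1.94e-08) and 2.82 for the outer one (1.83e-11). The lncRNA inside 2810007J24Rik, now Sult2a8, a sulfotransferase gene, had 8.01, 5.45 and 3.02 RPKM in male against 2.42, 2.46 and 2.14 RPKM in female nuclear pools, with a log2 of 1.36 in the authors' deposited table. C9, the last component of the membrane attack complex of complement, faced an lncRNA with 2.53, 1.58 and 0.941 RPKM in male and 0.738, 0.658 and 0.730 RPKM in female nuclear pools, with a log2 of 1.37 in the authors' deposited table. Ces1f, a carboxylesterase gene, faced one at 2.32, 1.69 and 0.801 RPKM in male and 0.950, 0.714 and 0.641 RPKM in female nuclear pools, which overlapped, with a log2 of 1.18 and an adjusted p of 0.00505 in the authors' deposited table. Matched by deposited and current symbols, 10 lncRNAs faced 6 genes of the listed sex-biased liver families, which were Ces1f, Ces4a, Gstt2, BC021614 (now Gstp3), Sult2a8 and Sult6b1. Those opposite Ces1f and Sult2a8 were called in nuclear RNA (20% of the 10, beside 4.12% of all lncRNAs) and none in total RNA.

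Etfbkmt, named Mettl20 in the files, encodes a methyltransferase of the electron transfer flavoprotein. It faced an lncRNA across its start with 1.47, 1.52 and 0.590 RPKM in male and 0.255, 0.282 and 0.229 RPKM in female nuclear pools (a log2 of 2.33 by the authors' deposited table, adjusted p = 4.04e-08). An lncRNA at its other end had 1.10, 1.57 and 1.33 RPKM in male and 0.632, 0.751 and 0.864 RPKM in female nuclear pools (a log2 of 0.94 by the authors' deposited table, adjusted p = 0.000334). The sexes were apart in both. Dcstamp, known for the fusion of bone-resorbing cells, also faced 2 called lncRNAs, the longer with 1.05, 1.47 and 1.08 RPKM in male and 0.305, 0.541 and 0.588 RPKM in female nuclear pools. Abi2, an Abl interactor that acts on the actin cytoskeleton, faced 2 called lncRNAs as well. Abi2's longer lncRNA (ncRNA_as_chr1_252, 14915 bases) had 1.28, 1.57 and 1.61 RPKM in male and 0.944, 0.975 and 1.14 RPKM in female nuclear pools. R3hdml and Lyrm2 faced called lncRNAs across their starts, with log2 values of 1.75 and 1.28 in the authors' deposited table. The remaining male-biased lncRNAs had log2 values between 0.53 for Nr2c1, an orphan nuclear receptor gene, and 2.91 for Elf5, an ETS factor gene, in the authors' deposited table. That of Elf5 rests on 30 male and 4 female nuclear reads.

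**Figure D1:**
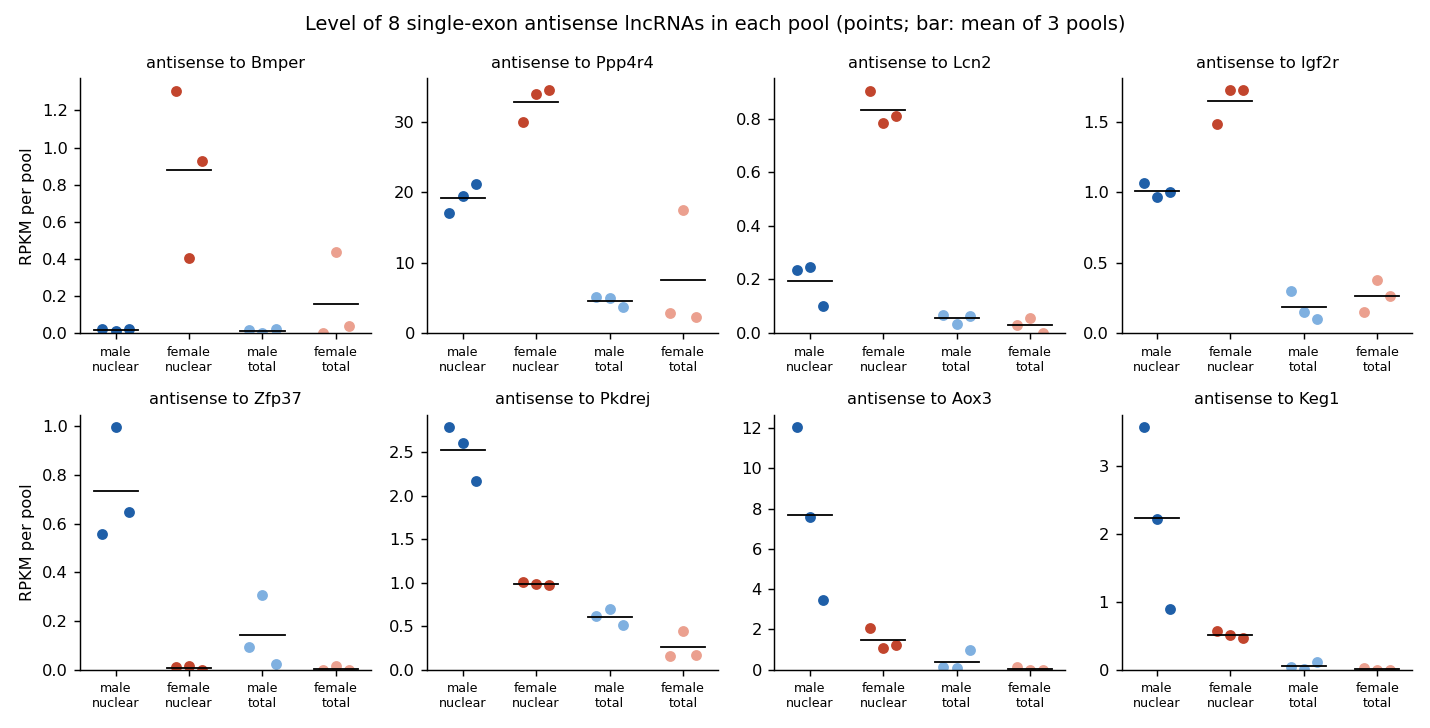
RPKM of 8 named lncRNAs in each pool (points, from the largest to the smallest library of a group) and the mean of 3 pools (bar), in male nuclear, female nuclear, male total and female total RNA. The lncRNAs opposite Bmper, Ppp4r4, Lcn2 and Igf2r are higher in all female nuclear pools and the others in all male nuclear pools, and the male nuclear pools of Aox3 run between 3.46 and 12.0 RPKM.

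The sex difference of an lncRNA was then set beside that of the gene it faces, with both values from the authors' deposited table. Of the 955 genes counted once for each lncRNA, 65 were called in nuclear RNA (6.81%, beside 4.19% of all RefSeq genes, 2.03% higher in males and 2.15% in females). Gene and lncRNA were both called in 17 pairs, and in all 17 the direction was the same, 12 higher in males and 5 higher in females. Aox3 and Etfbkmt each enter these pairs more than once. Among lncRNAs at 0.5 RPKM or more in a sex that faced a called gene, called or not themselves, 36 of 39 had the direction of the gene. Of the lncRNAs that faced a called gene 26.2% were called, beside 2.81% of the others. In 25 pairs the lncRNA alone was called. Among spliced antisense lncRNAs 29 pairs had both called, 28 of them in the same direction. In total RNA 41 of the genes were called (4.29%, beside 3.02% of all RefSeq genes, 1.42% higher in males and 1.6% in females), and both were called only at C9, each higher in males. At 0.5 RPKM or more in a sex, 1 lncRNA faced a called gene in total RNA, that opposite BC021614, and it had the other direction. Its log2 was 2.46 (adjusted p = 0.0530) and that of the gene -2.74 (adjusted p = 1.38e-09) in the authors' deposited table.

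How near the log2 of the lncRNA came to that of the gene differed with the level of the gene and the overlap. At 10 FPKM or more in nuclear RNA (mean of both sexes) and 200 bases or more of overlap, the median absolute difference of the log2 values was 0.14 over 18 lncRNAs. It was 0.25 over 221 lncRNAs that faced a gene at 1 to 10 FPKM, 0.46 over 220 that faced a gene below 1 FPKM, and 0.42 over 155 with less than 200 bases of overlap, all with at least 30 nuclear reads. Spearman's rho between both log2 values was 0.96, 0.48, 0.21 and 0.30 in the same order, over lncRNAs that share the 12 libraries and are not independent replicates. The classes also differ in the spread of the gene log2, with a standard deviation of 1.02, 0.64, 0.68 and 0.66 in that order. The level of the lncRNAs, and so their reads, differs with the level of the gene as well. The part of spread and read depth in these values was not tested. In the 5 called pairs of the first class the values differed by 0.03 to 0.38, as for Sult2a8, with 1.36 for the lncRNA and 1.32 for the gene, and for the inner Aox3 lncRNA, with 2.52 and 2.44. At a short overlap the values lay farther apart, by 0.47 to 2.68 in 4 called pairs. Bmper gave the largest gap, with -5.45 for the lncRNA and -2.78 for the gene, followed by the lncRNA at the end of Etfbkmt with 0.94 and 2.07. The classes were drawn after the values had been seen.

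**Figure D2:**
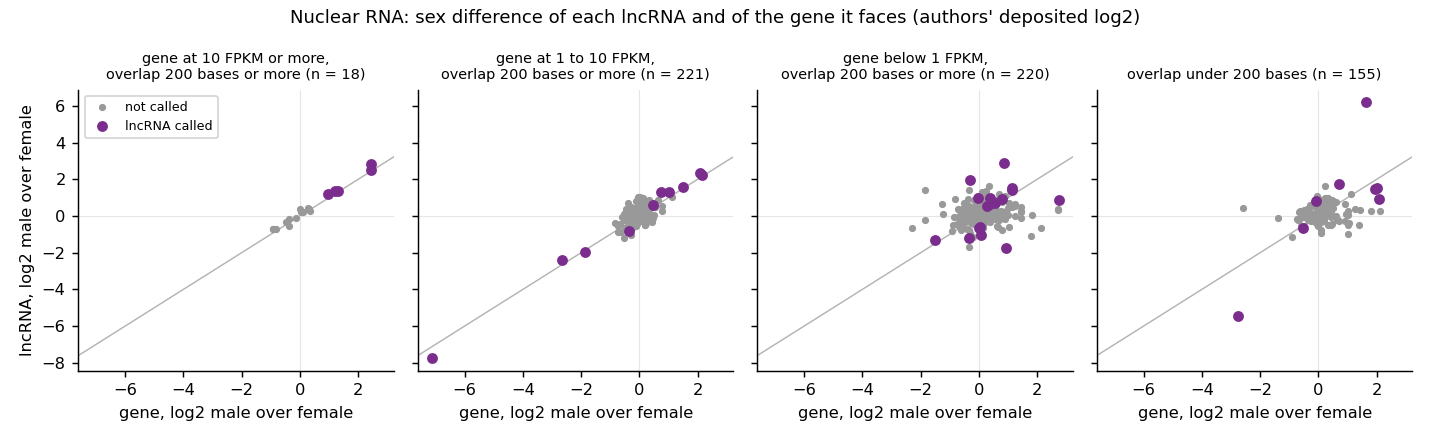
The authors' deposited log2 of male over female in nuclear RNA for the gene (horizontal) and for the lncRNA opposite it (vertical), for lncRNAs with 30 or more nuclear reads in 4 classes of gene level and overlap, with called lncRNAs in purple and the line of equal values in grey. Points lie along the line opposite genes at 10 FPKM or more, where the median absolute difference is 0.14, and scatter where the gene is below 1 FPKM or the overlap is short.

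The level of the lncRNAs also followed that of the gene in nuclear RNA. Over the 573 lncRNAs inside a gene, the median was 0.147 RPKM opposite genes below 0.1 FPKM (188 lncRNAs), 0.187 RPKM at 0.1 to 1 FPKM (188), 0.367 RPKM at 1 to 10 FPKM (185) and 4.04 RPKM at 10 FPKM or more (12). Spearman's rho was 0.53 in nuclear and -0.0011 in total RNA, as a description over lncRNAs that share libraries. In total RNA the medians were 0.322 RPKM in males and 0.124 RPKM in females opposite genes at 10 FPKM or more, and between 0.0152 and 0.0309 RPKM in the lower classes, where 3 reads in a group at the median length make 0.0332 RPKM in males and 0.0302 RPKM in females. At an overlap of 200 bases or more, the RPKM of the lncRNA was a median of 0.103 times the FPKM of the gene for genes at 10 FPKM or more, and 0.176 times for genes at 1 to 10 FPKM.

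**Figure D3:**
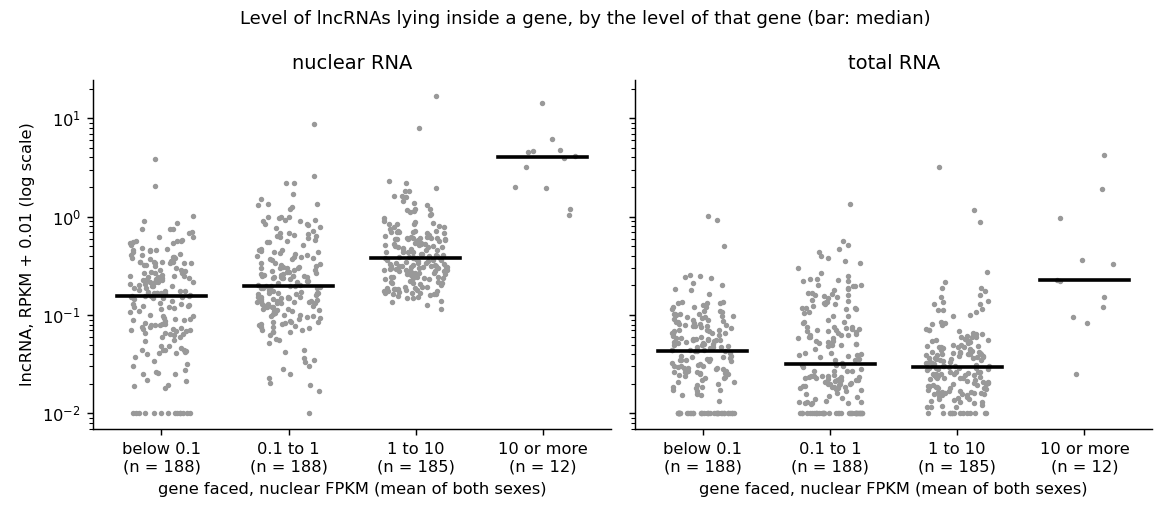
Level of the 573 lncRNAs inside a gene (points, RPKM plus 0.01 on a log scale, mean of both sexes) in nuclear RNA on the left and total RNA on the right, by the nuclear FPKM of the gene, with medians as bars. The nuclear medians are 0.147, 0.187, 0.367 and 4.04 RPKM from the lowest to the highest gene class, before 0.01 is added.

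Single libraries did not weigh equally in all lncRNAs. In male nuclear RNA, lncRNAs opposite genes at 10 FPKM or more had a median of 1.49, 0.98 and 0.54 times their group mean in the libraries of 12.4, 12.2 and 11.1 M reads, and those opposite genes at 1 to 10 FPKM 1.38, 1.06 and 0.54 times. Opposite genes below 1 FPKM the values were 0.94, 1.06 and 0.98, and at an overlap under 200 bases 0.94, 1.03 and 1.00, so those libraries were even. All 18 lncRNAs opposite genes at 10 FPKM or more lay above their mean in the largest male nuclear library and none in the smallest. Female nuclear libraries ran between 0.85 and 1.11 times the mean in the same classes. In male total RNA the values were 0.53, 0.20 and 2.33 times the mean opposite genes at 10 FPKM or more, the last in the library of 6.43 M reads. Opposite genes at 1 to 10 FPKM they were 1.00, 1.05 and 1.07. Libraries of nuclear and total RNA cannot be matched to each other. In female total RNA the library of 11.3 M reads was high in every class, at 1.44 to 1.79 times the mean. The part of these libraries in the sex differences of lncRNAs opposite abundant genes was not tested beyond leaving each out in turn. Leaving out any 1 library kept the direction of all 42 nuclear and all 7 total calls. That outcome was fixed for the 39 nuclear and 3 total calls whose pools of the sexes did not overlap. Where the lower sex was left with no reads, as for Zfp37 in total RNA, no log2 could be given. For the Keg1 lncRNA the log2 of the mean RPKM with 1 library left out ran between 1.59 and 2.48, beside 2.10 with all libraries. For some nuclear calls the fold moved by over 1.5 times. It was -4.60 for Orm3 without the largest male library and -2.04 without the smallest, beside -2.62. For Elf5 it was 2.29 without the female library of 12.0 M reads and 4.36 without that of 11.7 M reads, beside 2.88. For Olfr45, an olfactory receptor gene, it was 2.27 without the female library of 12.4 M reads and 3.89 without that of 11.7 M reads, beside 2.85.

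**Figure D4:**
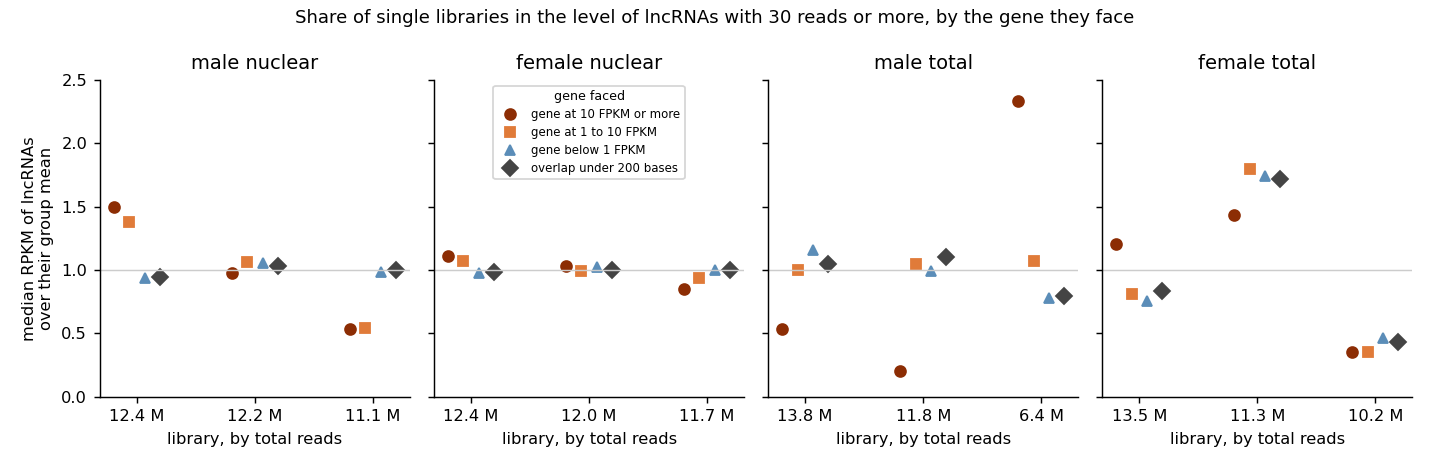
Median, over lncRNAs with 30 or more reads in the group, of the RPKM in a library divided by the group mean (vertical), for the 3 libraries of each group by total reads (horizontal) and for 4 classes of the gene faced. In male nuclear RNA the classes opposite genes at 1 FPKM or more run between 0.54 and 1.49 while the other classes stay near 1, and in male total RNA the library of 6.4 M reads reaches 2.33 opposite genes at 10 FPKM or more.

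With the recovered reads, limma's voom fit over 6063 single-exon lncRNAs called 30 of 828 single-exon antisense lncRNAs in nuclear RNA (3.62%, beside 4.62% of all tested), 18 higher in males and 12 in females, of which 27 were also called in the same direction in the authors' deposited table. Without 1 library at a time the count ran between 15 and 48. It was 15 without the male library of 12.2 M reads, 48 without the male library of 11.1 M reads, 16 without the female library of 12.4 M reads and 19 without the female library of 12.0 M reads. Of the 42 nuclear calls in the authors' deposited table, 15 did not pass in limma, those opposite Adcy1, Akr1c19, Btg3, Cyp2u1, Hdc, Igf2r, Kcnb2, Mtbp, Nr2c1, Olfr45, Slc18a2, Slc39a4, Slc6a20b and Tgif1 and the longer one opposite Abi2. The fit was chosen after the data had been seen. On simulated counts of this comparison it recovered 91 of 193 lncRNAs changed 4-fold (47.2%), among 5990 tested. The simulation gave every lncRNA the same dispersion, so recovery where pools spread more was not tested.

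In total RNA 7 lncRNAs were called in the authors' deposited table, 6 higher in males and 1 in females, which is 0.711% beside 0.932% of all lncRNAs (0.45% higher in males and 0.482% in females). In 3 of the 7 the pools of the sexes did not overlap, which adds no support, since the calls rest on these same pools. Over all 985 lncRNAs, called or not, 15 were so separated with males higher and 31 with females higher, in RPKM scaled to library totals alone. The authors' log2 carries a further scaling. Over the single-exon antisense lncRNAs at 0.1 RPKM or more in both sexes it lay a median of 0.49 above the quotient of the means. The part of this scaling in the split of 15 and 31 was not tested. Of all single-exon lncRNAs, 3.76% showed such a separation in either direction. Called in both fractions were 5, the lncRNAs opposite Abi2, C9, Cdpf1, Pkdrej and Zfp37, all male-biased in each. The Pkdrej lncRNA had 0.616, 0.699 and 0.515 RPKM in male and 0.163, 0.444 and 0.168 RPKM in female total pools, which did not overlap. The Zfp37 lncRNA had 8, 22 and 1 reads in male and 0, 1 and 0 reads in female total pools. At C9, 77 of 106 male reads came from the library of 6.43 M reads and 25 and 4 from the other 2, against 6, 3 and 1 reads in female pools. Its log2 of 4.67 in the authors' deposited table has an adjusted p of 0.00258, and without that library the log2 of the mean RPKM was 2.01, beside 4.13 with all. The lncRNA opposite Cox6c, a subunit gene of cytochrome c oxidase, was called in total RNA only, with 5, 4 and 9 reads in male and 0, 2 and 1 reads in female pools. Slc16a12, a monocarboxylate transporter gene, faced the female-biased lncRNA, with 0.716, 0.617 and 0.437 RPKM in male and 1.42, 3.27 and 0.619 RPKM in female total pools and a log2 of -1.05 in the authors' deposited table (adjusted p = 0.000845). In RPKM, which is scaled to library totals alone, these total pools overlapped, by the smallest female library. A size factor is the median level, in reads, of lncRNAs with reads in every library, relative to all 12 libraries. It was 0.573, 1.08 and 0.260 for the female total libraries of 13.5, 11.3 and 10.2 M reads. Whether the pools overlap after such scaling was not tested. The nuclear pools of the Slc16a12 lncRNA did not overlap, at 1.33, 1.16 and 0.654 RPKM in male and 1.88, 1.89 and 1.43 RPKM in female nuclei, though it was not called there.

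The limma fit called 5 of 360 lncRNAs in total RNA (1.39%, beside 1.52% of all tested), all 5 of them among the 7, and lost C9 and Cox6c (adjusted p = 0.290 and 0.140). Without the male library of 13.8 M reads it called 2, and without the female library of 10.2 M reads 2. The Slc16a12 lncRNA passed with all libraries, but its adjusted p in limma was 0.0505 to 0.178 with any 1 library left out. The log2 of the mean RPKM of every total call moved by over 1.5 times as a fold without some library. These RPKM carry no size factor, which was 1.08 for the female library of 11.3 M reads, against 0.573 and 0.260 for the others. The part of this scaling in the moves was not tested. Without the female library of 11.3 M reads the log2 of the mean RPKM was -0.79 for Slc16a12, beside -1.58, 1.72 for Abi2, beside 0.74, 1.75 for Cdpf1, beside 1.09, and 1.88 for Pkdrej, beside 1.24. That library held the single female read of Zfp37, whose log2 was 3.65 without the male library of 11.8 M reads and 4.30 without either other female library, beside 4.88. For Cox6c it was 1.94 without the male library of 6.43 M reads, 2.35 without the female library of 13.5 M reads and 3.84 without that of 11.3 M reads, beside 2.94. Marker genes also differed between the sexes in total RNA. In the authors' deposited table the calls were 3 of 6 hepatocyte, 3 of 5 Kupffer, 1 of 4 stellate and 1 of 2 erythroid markers. None of 4 endothelial markers was called. Of the hepatocyte calls, Alb (log2 -0.61) and Cps1 (-0.46) were higher in females and Apoa1 (0.53) in males. The stellate call, Reln (-0.45), was higher in females and the erythroid call, Alas2 (2.22), in males. The Kupffer log2 was -2.75 for Marco and between -0.52 and -0.43 for the other 4. The authors' means are not scaled as the log2 is, which lay a median of 0.49 above their quotient over the single-exon antisense lncRNAs. In these means the sums were 10.3 FPKM in male and 22.3 FPKM in female total RNA for Kupffer, 3621 and 6591 for hepatocyte, 5.54 and 8.95 for endothelial and 9.52 and 14.9 for stellate markers. Most of the hepatocyte sums is Alb, at 2711 FPKM in male and 5481 FPKM in female total RNA, while Apoa1 had 451 and 422 FPKM. Of the 3 female total libraries 2 ran in another lane than the male ones. Fewer cells of a type and less RNA per cell cannot be told apart in such samples, and their part in the total RNA calls was not tested.

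The difference of the sex effect between nuclear and total RNA was tested over all 12 libraries with limma, and no single-exon antisense lncRNA passed an adjusted p of 0.05 (0 of 853, beside 0.0305% of 6561), while 35 had an unadjusted p under 0.05. For the Lcn2 lncRNA (ncRNA_as_chr2_1207), the log2 of male over female in nuclear less that in total RNA was -3.56 by limma (SE 0.726), at an adjusted p of 0.0774. In total RNA the Lcn2 lncRNA had 9, 4 and 4 reads in male and 4, 6 and 0 reads in female pools. A call in nuclear RNA alone is thus not shown to differ from total RNA.

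Nuclear and total levels were compared as log2 of nuclear over total RPKM, with 0.1 added to each, for the 277 lncRNAs at 0.5 RPKM or more in a group, as a mean of both sexes and with no test. The median was 1.87, and 275 of 277 were higher in nuclear RNA, beside 2450 of 2484 over all lncRNAs at that level. Over all 2484 lncRNAs at that level the median was 1.73, so the single-exon antisense lncRNAs lay 0.14 above it, which became -0.0073 with a pseudocount of 1. The most nuclear among those at 1 RPKM or more lay inside Ccbl2 (4.05 and 3.97 for 2 lncRNAs), 2810007J24Rik (4.03), Rbm39 (3.95), Fam214a (3.91) and Aox3 (3.73). Where the total level is below the added 0.1 RPKM, that added value sets much of the log2. The longer Ccbl2 lncRNA, for example, had 0.0646 RPKM in male and 0.0255 RPKM in female total RNA. Inside Ccbl2, a transaminase gene of the kynurenine pathway, the longer lncRNA had 2.91, 2.31 and 1.39 RPKM in male nuclear, 2.78, 2.55 and 1.77 RPKM in female nuclear, 0.0363, 0.0282 and 0.129 RPKM in male total and 0, 0.0440 and 0.0325 RPKM in female total pools. Every nuclear pool was above every total pool.

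Of these 277, 2 were higher in total RNA. From 0.1 RPKM, 813 of 825 were higher in nuclear RNA, and with no filter 946 of 985. The counts over all lncRNAs were not taken at these settings. The lncRNA across the start of Apoe, the gene of apolipoprotein E, had 5.77, 4.47 and 2.74 RPKM in male nuclear, 4.01, 3.82 and 3.16 RPKM in female nuclear, 8.22, 3.80 and 15.1 RPKM in male total and 10.6, 15.9 and 3.73 RPKM in female total pools. Its log2 of nuclear over total was -1.24, and pools of the fractions overlapped in each sex. The other of the 2, inside Klhdc9, had -0.45 on 14 male nuclear, 18 female nuclear, 17 male total and 29 female total reads. The next lowest were the lncRNAs opposite Dfna5 (0.30), Slc16a12 (0.35), Apoc1 (0.66), an apolipoprotein gene beside Apoe, and Ptms (0.81). Dfna5, which encodes gasdermin E, faced an lncRNA with 1.23, 1.30 and 1.63 RPKM in male nuclear, 1.25, 1.47 and 1.35 RPKM in female nuclear, 1.09, 1.20 and 1.12 RPKM in male total and 0.884, 1.88 and 0.419 RPKM in female total pools.

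**Figure D5:**
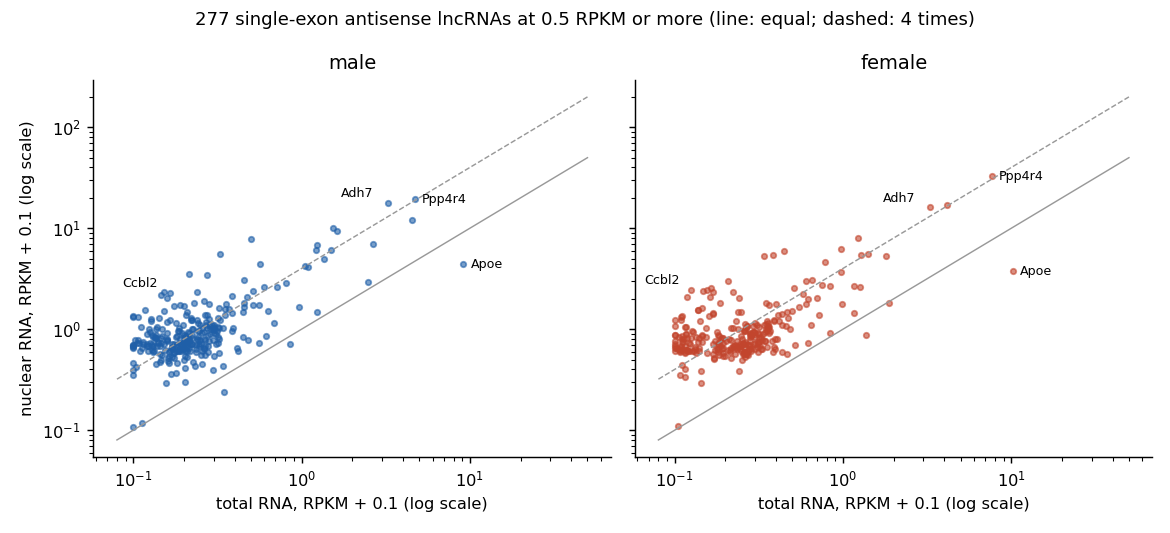
RPKM plus 0.1 in total RNA (horizontal) and nuclear RNA (vertical), both on log scales, of the 277 lncRNAs at 0.5 RPKM or more in a group, in males on the left and females on the right, with lines of equal and of 4 times higher nuclear level. Nearly all points lie above the line of equal levels, and the lncRNA opposite Apoe lies below it at 4.33 RPKM in nuclear and 9.06 RPKM in total RNA of males.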

How the data were processed

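RNA of 12 libraries was sequenced, 3 pools in each of 4 groups. Per the submitters' processing notes, TopHat2, featureCounts, edgeR and the mouse build mm9 were used. No source used here gives their versions. The tables hold, per the file headers, the authors' mean RPKM of lncRNAs and mean FPKM of RefSeq genes per group, and the log2 of males over females, a normalized ratio, p-values and false discovery rates, those of lncRNAs from edgeR. The authors' comparison at an adjusted p under 0.05 is the test used. The labels call each sample a pool, so p-values measure the spread between pools.

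From a deposited mean RPKM and the length of a 1-exon lncRNA, the whole reads of the 3 libraries were solved for in Python 3.11.15 with numpy 2.4.6, and checked on simulated data. All 945 male nuclear, 946 female nuclear, 748 male total and 764 female total means above 0 had 1 solution. The pool numbers of the libraries stay unknown. limma 3.58.1 (voom, R 4.3.3) with Benjamini-Hochberg adjustment was run on those reads for lncRNAs with 10 reads or more, and tested on simulated data. Per-pool values are recovered reads, and no count file was held, so count tests were not run. Genes were matched by position on mm9 with an overlap of 1 base or more. Promoters came from RefSeq by symbol; the genes Slc39a4 and Pkdrej had no entry.

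The lncRNAs and lists were chosen with earlier results of these data known. Named are, per fraction and direction, the 8 called lncRNAs at 0.5 RPKM or more with the lowest adjusted p, the 8 with the highest level and the 6 most and 6 least nuclear. Other called lncRNAs, the classes by gene level and overlap, the minimum of 30 reads and the limma fits were chosen after values were seen. An item the rule names is not reported here. Intervals and floors cover counting error only. Alternatives were other thresholds, level and length minimums, pseudocounts, the quotient of the group means, limma and leaving out each library.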

Additional observations from a re-analysis of the deposited data

How the results depend on the processing

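At an adjusted p under 0.01 in the authors' deposited table, 27 single-exon antisense lncRNAs were called in nuclear RNA instead of 42, and the share called was 2.74%, beside 4.26%. At 0.5 RPKM or more it was 11.9%, and in total RNA 3 of the 7 calls reached that level. With limma on recovered reads and 1 library left out, nuclear calls numbered 15 to 48 (16, 19, 21 and 35 between these) and total calls 2 to 6 (4 and 5 between these). The median nuclear over total log2, less that of all lncRNAs, was -0.0073 with a pseudocount of 1, a turn of sign from 0.14, and 0.25 with a pseudocount of 0.01. It was 0.27 from 0.1 RPKM, 0.55 with no filter and 1.87 when not centred. With an overlap of 50% or more of the lncRNA, 10 pairs had gene and lncRNA both called instead of 17, since fewer pairs enter. For the other shifts the cause was not tested. The quotient of the group means kept the direction of all 49 calls. The limma fit kept 32 of them and 17 no longer passed, with none reversed. No paired analysis was possible because the recovered libraries carry no pool number. The replicate block, edgeR and DESeq2 were not run, since no counts per sample were held. Depth limits total RNA most, where 767 lncRNAs in males and 729 in females had under 10 reads.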
